A study of Mus musculus with 12 samples.

Results

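Male offspring of dams given bisphenol A (BPA) during pregnancy were compared with male offspring of dams given corn oil, in the adult prefrontal cortex. The samples were chosen by their labels and made up 6 of the 12 libraries of the series, 3 Ctrl males (mice 713, 724 and 767, in the order of replicates 1 to 3) and 3 BPA males (mice 786, 3608 and 3619). All 6 were C57BL/6 mice (C57BL/6Slac by the protocol) of 4 months. Their dams had received corn oil alone or BPA, at a dose of 40 µg/kg bw/day, by gavage over gestational days 0.5 to 13.5. Whole prefrontal cortex was extracted from each mouse, mRNA was captured with oligo(dT) beads, and reads were counted on the exons of every gene. The labels name no dam or litter for any mouse, while the study states that its molecular work drew on separate litters, and the p-values measure the spread between these mice. In whole tissue, fewer cells of a type and less RNA per cell cannot be told apart.

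BPA is used to make plastic goods, binds estrogen receptors weakly and can disturb hormone signalling. The prefrontal cortex holds layered excitatory neurons, inhibitory interneurons, glia and vessels, and a bulk library mixes them all. Cells there keep proteins in shape through endoplasmic reticulum (ER) chaperones, whose genes are switched on by XBP1 and related factors, and they limit oxidative damage with metal-binding proteins, superoxide dismutases and selenium-containing enzymes. Insulin and related growth factors act through PI3K, AKT and mTOR, with GSK3 as a kinase that AKT restrains.

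The 6 libraries held 16759990 to 17066858 counts, and 16021 genes had enough counts to be tested. With edgeR's quasi-likelihood test, 1425 genes (8.89%) had an unadjusted p under 0.05 and are called changed here, 627 of them higher (3.91%) and 798 lower (4.98%) in BPA males. After Benjamini-Hochberg adjustment over all 16021 genes, 0 passed 0.05 (smallest adjusted p = 0.5241), so every call below rests on the unadjusted p. DESeq2 gave 4 genes an adjusted p of 0.04844 on the same genes, namely Selenow, Tenm4, Flrt2 and Gsk3b. Levels are CPM, counts per 1000000 counts, on TMM-scaled library sizes, and differences are log2 fold changes of BPA over Ctrl with their standard error (SE). BPA replicate 1 stood apart in its cell type markers, with a summed myelin level of 3090 CPM against 1324 to 1805 CPM in the other mice, and without it 1734 genes were called. Without Ctrl replicate 1 there were 734, and without BPA replicate 3 there were 690.

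Changes followed gene length. Genes were put in 5 equal groups by exonic length. In the shortest group (median 1415 bases), 28 were higher and 444 lower in BPA males. In the longest group (median 9605 bases), the split was 361 and 11. The libraries also differed in this respect, since the rank correlation of each library's deviation with exonic length was -0.39, -0.19 and -0.03 in the Ctrl males and 0.10, 0.20 and 0.32 in the BPA males. The 3 BPA males thus lay above all 3 Ctrl males in this trend. Length and group therefore move together, and a second fit removed each library's own trend with length (called the length offset below). It left 373 genes higher (2.33%) and 519 lower (3.24%), with 78 and 169 in the shortest group and 89 and 75 in the longest. Of the first calls, 291 of 627 and 423 of 798 were kept by it. For the gene lists below, counts with the length offset are given beside the first ones. The shares of all genes to set beside them are 3.91% higher and 4.98% lower, or 2.33% and 3.24% with the offset.

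**Figure D1:**
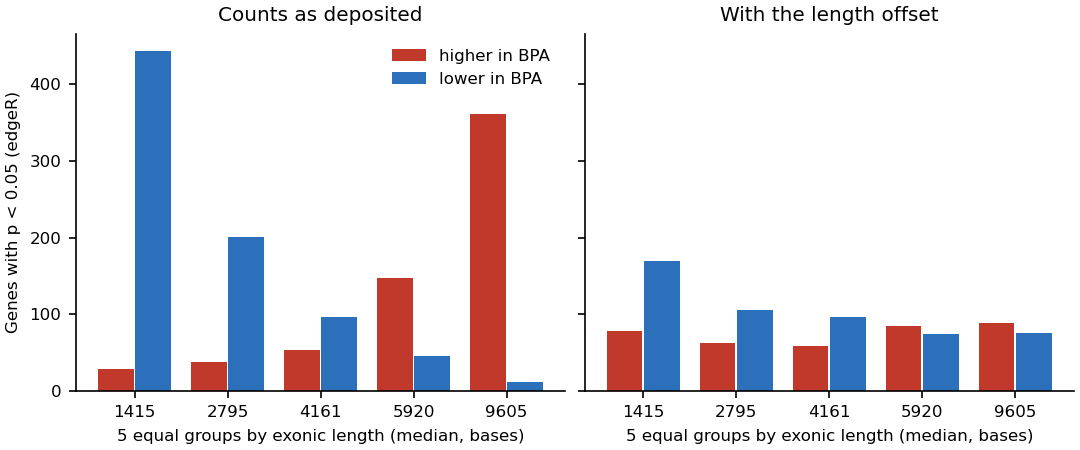
Number of genes with p under 0.05 (edgeR) that were higher (red) or lower (blue) in BPA males, by 5 equal groups of exonic length, each named by its median in bases. On the left, calls pass from 444 lower genes in the shortest group to 361 higher genes in the longest, and on the right, with the length offset, from 169 lower to 89 higher.

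The calls reached beyond any single class of genes. Of the 627 higher genes, 77.5% were in none of the 74 gene lists examined, and of the 798 lower genes 69.8%. Sizes were modest, with a median log2 change of 0.30 among higher and 0.36 among lower genes, and 18 and 20 genes passed 1 on the log2 scale.

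Genes of smallest p with no overlap between groups were taken outside the lists of nuclear-encoded OXPHOS, ribosomal, neuronal, glucocorticoid-target and globin genes. Among the higher ones, Gsk3b, a kinase held in check by insulin and Wnt signals, had 128, 143 and 128 CPM in the Ctrl males and 182, 169.9 and 198 CPM in the BPA males. Its log2 fold change was 0.46, SE 0.09, and lack of overlap, required by the choice, held for 7.1% of all genes tested with BPA higher and 8.05% with BPA lower. Usp54, of the ubiquitin-specific peptidase family, had 56.4, 52.5 and 52.6 CPM against 74.9, 68.6 and 68.8 CPM (0.39, SE 0.08). Rasal2, which turns RAS off, rose from 85.5, 84.7 and 87 CPM to 108, 107 and 123 CPM (0.39, SE 0.08). Nr2c2, an orphan nuclear receptor, stood at 29.4, 34.8 and 37.9 CPM and 46.6, 48.8 and 45.8 CPM (0.47, SE 0.10), with 31.2% of its exonic bases shared with another gene. Trp53inp1, a p53-induced stress gene, stood at 15.2, 12.6 and 11.2 CPM and 19.5, 18.5 and 20.7 CPM (0.59, SE 0.13). Kcna5, a voltage-gated potassium channel, had 3.25, 3.11 and 3.21 CPM in the Ctrl and 6.05, 5.26 and 4.76 CPM in the BPA males, with a log2 fold change of 0.75, SE 0.17 that was 0.81 with the length offset. Faxc, Exph5, Arhgef10, Klhdc7a, Arhgef12, Lrig2, Mcc and Marf1 were also among the 15 higher genes of smallest p, with log2 fold changes between 0.32 and 0.70. All those named here kept p under 0.05 with the length offset and without each of the 6 mice in turn. They were chosen for small p in these same mice, so keeping the call says little about stability.

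Among lower genes, Banp, a nuclear protein that binds unmethylated CGCG motifs, had 43.7, 43.7 and 45.8 CPM in the Ctrl males and 31.6, 34.7 and 32.9 CPM in the BPA males (-0.42, SE 0.08). Crhr1, the receptor for corticotropin-releasing hormone, had 32.1, 33.5 and 33.5 CPM and 24.6, 24.6 and 26.1 CPM (-0.39, SE 0.08). The values within each group lay close together for this receptor. Dpf1, a subunit of the neuronal BAF chromatin remodeller, fell from 91.3, 96.7 and 94.5 CPM to 73.4, 76.7 and 75.1 CPM (-0.33, SE 0.07). Slc25a18, a mitochondrial glutamate carrier of astrocytes, fell from 76.5, 67.5 and 73.02 CPM to 56.6, 59.4 and 53.2 CPM (-0.36, SE 0.08). Lin37, a subunit of the cell-cycle repressor DREAM, was at 34.4, 30.7 and 30.4 CPM and 22.8, 25.8 and 20.97 CPM (-0.46, SE 0.11). Bex3, an adaptor of the neurotrophin receptor p75, was at 115, 119 and 99.1 CPM and 89.02, 79.4 and 85.7 CPM (-0.39, SE 0.09). The choice required all 3 BPA values to lie under the Ctrl values. Sdf2l1, Xbp1, Manf, Serp2, S100a1, Selenow, Chchd10, Polr2f and Krt12 completed the 15, and 54.4% of the exonic bases of Krt12 lie in exons of another gene. All 15 were again called with the length offset and without each mouse in turn, which their choice for small p in these same mice makes likely.

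ER folding genes were among those that fell. Of 31 tested members of the ER chaperone and unfolded protein response list, 7 were lower (22.6%, against 4.98% of all genes) and 2 higher (6.45%, against 3.91%). The median log2 fold change was -0.13, against -0.01 over all genes. Xbp1, the transcription factor that switches on ER chaperone genes, had 86.5, 90.2 and 88.6 CPM in the Ctrl males and 71.8, 71.6 and 69.3 CPM in the BPA males (-0.32, SE 0.07). Sdf2l1, a partner of the ER chaperone BiP, had 12.8, 13.4 and 12.9 CPM and 9.13, 9.12 and 8.34 CPM (-0.56, SE 0.11). Manf, a secreted ER stress protein that protects neurons, had 50.05, 56.4 and 55.7 CPM and 43.7, 42.2 and 41.8 CPM (-0.34, SE 0.08). Creld2, another secreted ER stress protein, had 19.8, 23.1 and 19.3 CPM and 14.2, 16.8 and 14.4 CPM (-0.46, SE 0.12). No BPA male reached the level of any Ctrl male in these 4 genes, but the choice of Xbp1, Sdf2l1 and Manf above had required this. Such a separation held for 8.05% of all genes tested. Herpud1 and Selenos, which take part in the disposal of misfolded ER proteins, fell by 0.24 and 0.31, and Ddit3, which encodes the stress factor CHOP, fell by 0.26 on the log2 scale. Canx, a lectin chaperone of the ER membrane, moved the other way, from 264, 289 and 256 CPM to 313, 297 and 318 CPM (0.20, SE 0.08), as did Ern1, the sensor kinase IRE1 that activates XBP1 (0.30, SE 0.10). Hspa5, which encodes BiP, fell short of the threshold, with 312, 376 and 349 CPM and 289, 309.5 and 302 CPM (-0.20, SE 0.09). The calcium-binding chaperone Calr did not pass it (-0.07, SE 0.08). The length offset kept 4 of the lower genes (Sdf2l1, Xbp1, Manf and Creld2) and Canx. The count of lower genes stayed between 6 and 8 without any one mouse, and that of higher genes between 1 and 2 (1 without Ctrl replicate 1 or 3 or without BPA replicate 1 or 3).

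The promoters of ER genes carry a known element, the ER stress response element, in which 9 bases of any kind stand between CCAAT and CCACG and which XBP1 and ATF6 recognise. It was searched on both strands in the 250 bases before the start of each gene (RefSeq sequences on GRCm38.p6). It was held by 8 of the 27 list members with a promoter, against 15 of 11553 (0.13%) of all tested genes with one. Of these 8, Creld2 was lower in BPA males, Canx was higher and the other 6, Hspa5 and Calr among them, were not called. The promoters of these 2 genes and of Hspa5 are shown because their genes carry the same element and differ in their calls. Capitals mark the element, which lies on the opposite strand in Creld2.
Creld2 (chr15:88819396-88819645, plus strand): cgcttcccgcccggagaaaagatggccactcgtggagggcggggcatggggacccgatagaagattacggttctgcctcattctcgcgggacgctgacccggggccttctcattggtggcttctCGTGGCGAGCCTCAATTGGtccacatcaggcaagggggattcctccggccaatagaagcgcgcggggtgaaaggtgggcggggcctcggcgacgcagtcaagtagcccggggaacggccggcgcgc
Canx (chr11:50325674-50325923, minus strand): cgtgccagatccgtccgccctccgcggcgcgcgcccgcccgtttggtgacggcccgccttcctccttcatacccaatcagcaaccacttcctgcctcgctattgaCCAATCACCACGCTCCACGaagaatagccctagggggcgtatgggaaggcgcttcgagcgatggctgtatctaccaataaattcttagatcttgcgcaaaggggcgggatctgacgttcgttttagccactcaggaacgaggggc
Hspa5 (chr2:34771840-34772089, plus strand): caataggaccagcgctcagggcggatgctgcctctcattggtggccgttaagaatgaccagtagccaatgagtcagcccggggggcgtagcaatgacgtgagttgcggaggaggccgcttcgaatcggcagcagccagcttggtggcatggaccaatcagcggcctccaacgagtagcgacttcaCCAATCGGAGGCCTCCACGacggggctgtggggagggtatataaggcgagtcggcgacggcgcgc
The element started 126 bases before the gene start in Creld2, 145 in Canx and 65 in Hspa5. A match to these letters is a description. Xbp1, Sdf2l1, Herpud1, Selenos and Ddit3 had no match in this window.

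The translocon feeds new proteins into the ER. Of 32 tested genes of the translocon and signal peptidase, 5 were lower (15.6%, against 4.98% of all genes) and 0 higher, with a median of -0.06. The lower ones were Krtcap2 (-0.38, SE 0.10), Ssr4 (-0.29, SE 0.10), Dad1 (-0.21, SE 0.08), Ssr2 (-0.29, SE 0.11) and Sec61b (-0.48, SE 0.20). Krtcap2 and Dad1 are small subunits of the oligosaccharyltransferase, which adds sugar chains to new proteins. The count fell to 1 without Ctrl replicate 1 and to 2 without Ctrl replicate 2 or BPA replicate 3, and it was 3 with the length offset. Serp2, whose product protects new membrane proteins in the ER, was at 93.2, 78.2 and 77.7 CPM in the Ctrl males and 66.8, 61.5 and 61.5 CPM in the BPA males (-0.39, SE 0.09). Of 46 cytosolic chaperones, 1 was lower (Pfdn5, -0.35, SE 0.12) and 0 were higher. That count rose to 5 without Ctrl replicate 3 or BPA replicate 1 and to 4 without BPA replicate 2, was 0 without Ctrl replicate 1 or BPA replicate 3, and was 1 with the length offset.

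Antioxidant genes formed a further group on the lower side. Of 47 tested metallothioneins and antioxidant enzymes, 8 were lower (17.0%) and 0 higher, 39 of 47 had a negative log2 fold change, and the median was -0.13. Selenow, the small selenoprotein W, had 763, 637 and 618 CPM in the Ctrl males and 495, 507 and 479 CPM in the BPA males (-0.45, SE 0.10). Mt3, the metallothionein of the brain, which binds zinc and copper, had 319.8, 230.5 and 223 CPM and 186, 175 and 175 CPM (-0.53, SE 0.13). Its relatives Mt1 and Mt2 did not pass the test, with 193, 159 and 149.7 CPM against 149.6, 179.7 and 151 CPM for Mt1 (-0.06, SE 0.12) and 46.6, 37.8 and 29.8 CPM against 36.2, 40.6 and 35.1 CPM for Mt2 (-0.03, SE 0.15). Sod1, the cytosolic superoxide dismutase, had 131, 122 and 112 CPM and 99.2, 93.6 and 96.1 CPM (-0.34, SE 0.08). Gpx4, which repairs oxidised membrane lipids, had 115, 89.4 and 85.6 CPM and 81.9, 64.6 and 65.3 CPM (-0.45, SE 0.14). In all 4 called genes given here the groups were apart, as the choice of Selenow above required, and in Mt1 and Mt2 they overlapped. Gstm5, Gsta4, Txn2 and Prdx5 were lower too, by 0.31, 0.43, 0.23 and 0.34 on the log2 scale. With the length offset 6 of the 8 kept their call, all but Gsta4 and Prdx5. The count was 5 without Ctrl replicate 1 and 17 without BPA replicate 1. Metal carriers were evenly split as a list, with 10 of 20 log2 fold changes positive and 10 negative, and a median of -0.0089. Still, 3 of the 20 were called lower, a larger share than the 4.98% of all genes, and 0 were higher. The 3 were the copper chaperone Atox1 (-0.38, SE 0.12) and the ferritin chains Ftl1 (-0.46, SE 0.16) and Fth1 (-0.24, SE 0.09). Of these 3, 1 was left without Ctrl replicate 1 or without BPA replicate 3. After the length offset 2 members were lower and 1 higher.

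**Figure D2:**
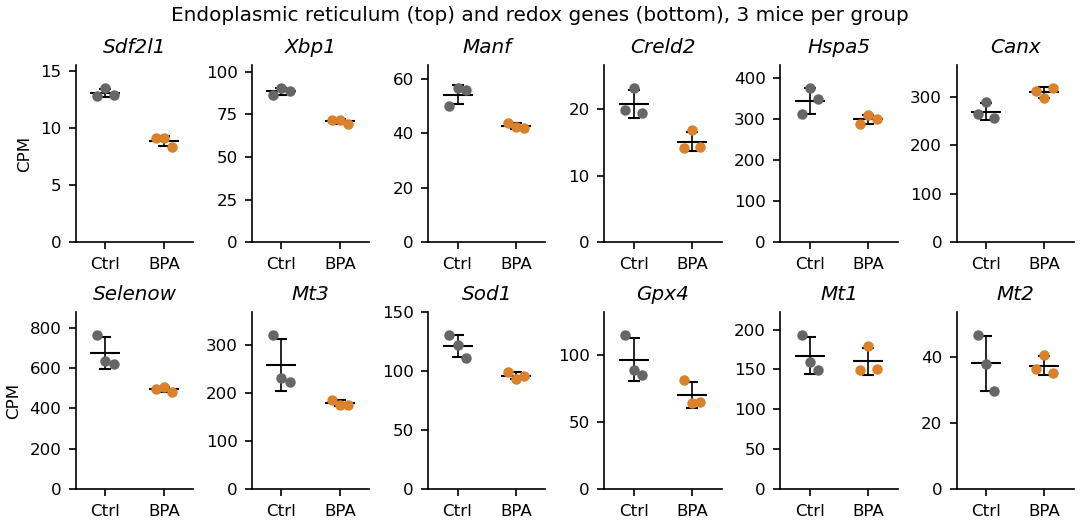
CPM of 12 genes in each Ctrl male (grey) and BPA male (orange), with the group mean (bar) and SD (whiskers), n = 3 per group, and a separate axis from 0 for each gene. Sdf2l1, Xbp1, Manf, Creld2, Selenow, Mt3, Sod1 and Gpx4 lie lower in every BPA male than in any Ctrl male, Canx lies higher, Hspa5 lies lower without passing the test, and Mt1 and Mt2 overlap.

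The list of mitochondrial import and cristae genes had 7 of 37 lower (18.9%) and 0 higher, with a median of -0.16 and a median length of 3170 bases. Chchd10, a protein of mitochondrial cristae, fell from 112, 102 and 105 CPM to 88.96, 78.8 and 69.6 CPM (-0.42, SE 0.10). Timm13, a chaperone of the space between the mitochondrial membranes, fell from 48.3, 36.03 and 37.7 CPM to 31.4, 28.9 and 27.4 CPM (-0.48, SE 0.12). Chchd6, Tomm40, Timm17b, Timm8b and Tomm7 were lower by 0.22 to 0.32. The count was 15 without BPA replicate 1, 4 without Ctrl replicate 1 and 2 without BPA replicate 3. The length offset left 5 that were lower and 1 higher. Of the 13 genes encoded in mitochondrial DNA itself, 0 were called, and mt-Co1 stood at 15967, 15245 and 13571 CPM in the Ctrl males and 13995, 15263 and 15585 CPM in the BPA males. The difference between these lists was not tested.

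Translation initiation and elongation factors had 10 of 51 members lower (19.6%) and 0 higher, with a median of -0.06. Eif3k and Eif3f, 2 subunits of the initiation factor that binds the small ribosomal subunit, fell by 0.39 and 0.29 on the log2 scale. Eif1, which helps to find the start codon, had 103, 91.9 and 91.5 CPM and 78.2, 76.5 and 83.3 CPM (-0.26, SE 0.08). The count was 4 without Ctrl replicate 1, 5 without Ctrl replicate 2, 6 without BPA replicate 2 and 3 when BPA replicate 3 was left out. The length offset left 6. Of 40 genes of RNA polymerase II and its general factors, 5 were lower (12.5%) and 0 higher. These were Polr2f, Taf10, Polr2j, Polr2e and Polr2i. Polr2f, shared by all 3 nuclear RNA polymerases, had 31.2, 25.3 and 28.7 CPM and 21.9, 19.9 and 20.8 CPM (-0.44, SE 0.11). Taf10, a subunit of TFIID, had a log2 fold change of -0.54, SE 0.13, but 45.9% of its exonic bases are shared with another gene. With the length offset 4 of the 5 were lower, while the count was 3 without Ctrl replicate 1, 2 without BPA replicate 3 and 8 without BPA replicate 1.

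Spliceosome proteins had 6 of 49 lower (12.2%, against 4.98% of all genes) and 0 higher. Among the 6 were Sf3b5 (-0.47, SE 0.12) of the U2 particle and the ring proteins Lsm4, Lsm7, Lsm2 and Snrpg. The count was 2 with the length offset, 1 without Ctrl replicate 1 and 2 without BPA replicate 2, while Sf3b5 was kept in each. Splicing regulators such as Mbnl1 and Celf2, which are longer genes (median 6924 bases), had 3 of 64 higher and 1 lower, and 0 higher without BPA replicate 3. The length offset left 0 higher and 1 lower. Small ubiquitin-like proteins and their partners had 4 of 29 lower (13.8%) and 0 higher. These were Elob (-0.42, SE 0.11), Nedd8 (-0.34, SE 0.10), Anapc11 (-0.34, SE 0.11) and Urm1 (-0.32, SE 0.12), and with the length offset 4 members were again lower. Proteasome genes had 2 of 33 lower, close to the share of all genes, yet 29 of 33 had a negative log2 fold change. Without BPA replicate 1 the proteasome count was 13, without Ctrl replicate 3 it was 6, and without any one of the other 4 mice it was 1, as with the length offset.

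Interferon-induced and MHC class I genes were lower in a minority of members. Of 40 tested, 10 were lower (25.0%) and 0 higher, and the median was -0.26, or -0.22 with the length offset. Irf7, the factor that amplifies interferon production, had 5.03, 2.99 and 3.33 CPM in the Ctrl males and 2.67, 2.22 and 1.85 CPM in the BPA males (-0.75, SE 0.25). Psme1, an interferon-induced proteasome activator, had 32.3, 28.4 and 25.9 CPM and 21.8, 24.4 and 21.1 CPM (-0.36, SE 0.11). Rtp4, an interferon-induced chaperone, had 4.26, 4.24 and 3.09 CPM and 2.91, 2.52 and 1.91 CPM (-0.66, SE 0.23). These 3 genes did not overlap between groups and kept their call with the length offset. Ifi27, Ifit1, Isg15, Irf3, Bst2, Tap2 and H2-Q4 were lower with p between 0.022 and 0.050, and lost it there. Ctrl replicate 1 had the highest level of Ifit1, with 6.15, 2.03 and 2.56 CPM in the Ctrl males against 1.30, 1.81 and 2.32 CPM in the BPA males. Without this mouse 1 member was lower and the median was -0.08. DESeq2 and the GC offset each gave 5 lower members, and scaling by library size alone gave 6. Without Ctrl replicate 2 there were 6, without BPA replicate 1 there were 5, and without BPA replicate 3 there were 4. The classical MHC gene H2-D1 (-0.14, SE 0.11) and the light chain B2m (-0.18, SE 0.10) did not pass the test.

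Microglia, the immune cells of the brain, had 4 of 22 markers lower (18.2%, against 4.98% of all genes) and 0 higher, and 21 of 22 had a negative log2 fold change. Their summed level was 714 to 848 CPM in Ctrl males and 578 to 776 CPM in BPA males, with the lowest sum in BPA replicate 1. P2ry12, the purine receptor of resting microglia, had 44.2, 47.6 and 48.2 CPM and 34.5, 41.9 and 38 CPM (-0.29, SE 0.09). Trem2, a lipid receptor, had 17.7, 10.1 and 12.1 CPM and 7.59, 10.4 and 8.82 CPM (-0.58, SE 0.21), and Gpr34 and Ctss were the others. The defining marker Cx3cr1 was not called (-0.23, SE 0.17). The marker count was 15 without BPA replicate 2, 1 without Ctrl replicate 1 or BPA replicate 1 and 2 without BPA replicate 3. The length offset left 1. The part of microglia in the interferon genes was not tested.

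**Figure D3:**
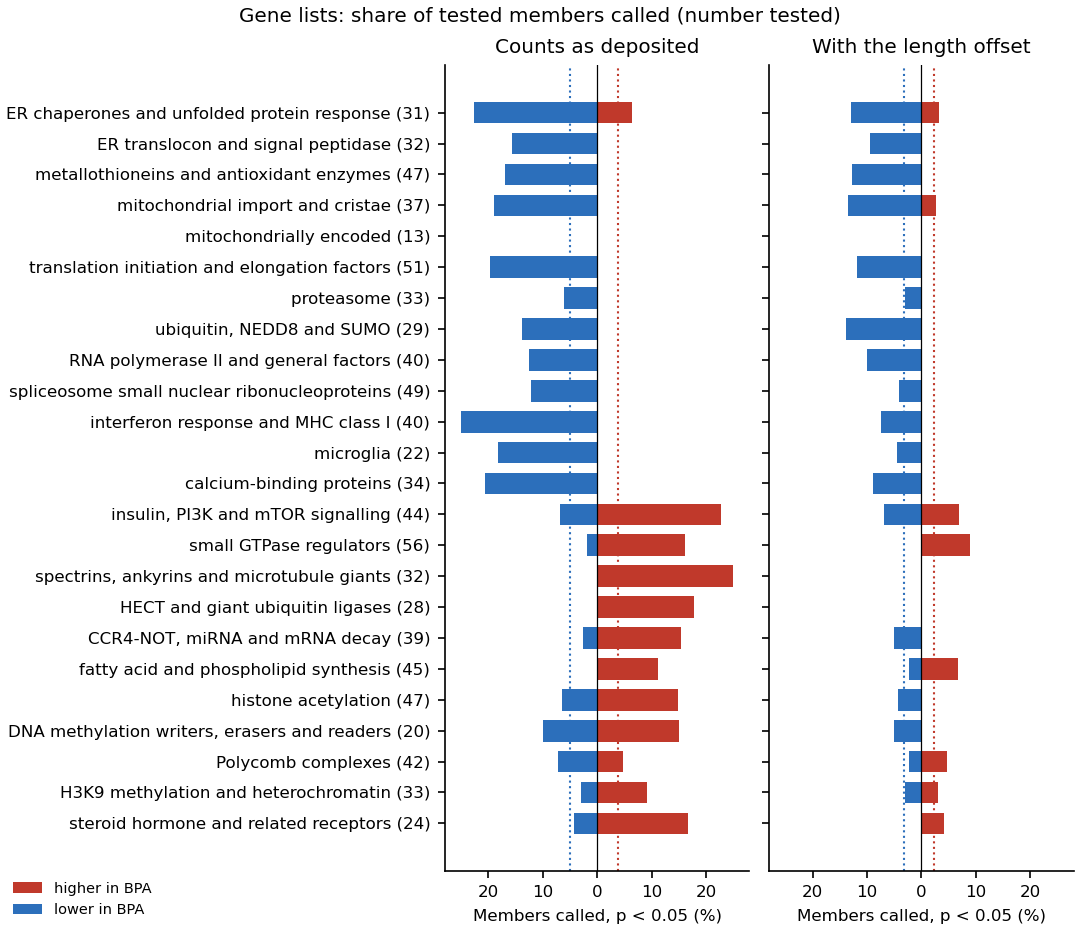
Share of the tested members of 24 gene lists with p under 0.05 (edgeR), higher in BPA males to the right (red) and lower to the left (blue), as deposited and with the length offset. Dotted lines mark the share over all 16021 genes (3.91% higher and 4.98% lower, or 2.33% and 3.24% with the offset), and the spectrin, HECT and mRNA decay lists lose all their higher members with the offset.

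On the higher side, insulin, PI3K and mTOR signalling had more calls than the background. Of 44 tested genes, 10 were higher (22.7%) and 3 lower (6.82%), with a median of 0.07 and a median length of 7162 bases. Pdpk1, the kinase that activates AKT, had 79.6, 92.4 and 95.1 CPM in the Ctrl males and 109.7, 108 and 114 CPM in the BPA males (0.31, SE 0.09). Irs1, the adaptor of the insulin receptor, had 4.08, 5.38 and 5.77 CPM and 6.998, 8.31 and 7.21 CPM (0.56, SE 0.17), and 30.9% of its exonic bases are shared with another gene. Both were higher in every BPA male. The insulin receptor Insr (0.19, SE 0.08) and the related receptor Igf1r (0.21, SE 0.09) were higher, as were the kinase subunits Pik3r1 and Pik3c2a and the mTOR partner Rictor. Lower were Lamtor4 (-0.39, SE 0.09), which tethers mTOR to lysosomes, Gsk3a (-0.21, SE 0.09) and Akt1 (-0.19, SE 0.08). The paralogs Gsk3b and Gsk3a thus moved oppositely. The length offset left 3 higher and 3 lower. Gsk3b (0.36), Pdpk1 (0.21) and Irs1 (0.48) stayed higher and Lamtor4 and Akt1 lower, while the offset value of Gsk3a was -0.15, short of the threshold. The count of higher genes was 4 without Ctrl replicate 1, 6 without Ctrl replicate 2 and 4 without BPA replicate 3. That of lower genes was 7 without BPA replicate 1, and 1 without Ctrl replicate 1 or BPA replicate 3.

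Regulators of the small GTPases that shape the actin skeleton had 9 of 56 higher (16.1%) and 1 lower, Rac3. Arhgef10 had 27.2, 24.02 and 25.6 CPM and 38.2, 33.3 and 33.8 CPM (0.45, SE 0.10), and Arhgef12 had 119, 129 and 121 CPM and 156, 152 and 155 CPM (0.33, SE 0.07). Arhgap32, which is rich at synapses, had 478, 565 and 546 CPM and 644, 719.9 and 718 CPM (0.39, SE 0.10). All 3 were separate between groups and called with the length offset, as were Arhgap21 and Arhgef28. For Arhgef10 and Arhgef12 the choice above had required the separation. Without BPA replicate 3 the count was 5. Without Ctrl replicate 3 the lower count was 2, without BPA replicate 1 it was 3, without BPA replicate 2 it was 5, and without Ctrl replicate 1 or BPA replicate 3 it was 0.

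Some lists of long genes had higher members only before the length offset. Spectrins, ankyrins and other giants of the cytoskeleton (median length 17300 bases) had 8 of 32 higher (25.0%) and 0 lower. Ank2, which anchors membrane proteins in axons, had 436, 540.1 and 452 CPM and 586, 575 and 608 CPM (0.31, SE 0.10), and its value with the offset was 0.10, short of the threshold. With the offset 0 of the 32 were called. HECT and giant ubiquitin ligases went from 5 of 28 to 0, with Ubr1 and the Angelman syndrome gene Ube3a among the 5. The CCR4-NOT, miRNA and mRNA decay list went from 6 of 39 higher (Cnot1, Dicer1, Tnrc6a, Pan3 and Tnrc6b among them; median length 6956 bases) to 0, and from 1 to 2 lower. In the same list Tarbp2, the short partner of Dicer, was lower in both fits (-0.41, SE 0.12 and -0.41). The 3 counts were also lower without BPA replicate 3, at 2, 1 and 2, and without BPA replicate 1, at 5, 1 and 2. The first and second of them were 13 and 8 without BPA replicate 2, and 4 and 2 without Ctrl replicate 1.

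Lipid genes were higher in 5 of 45 members of fatty acid and phospholipid synthesis (11.1%), with 0 lower. Scd1, a desaturase that makes monounsaturated fatty acids, had 86.1, 109.8 and 117 CPM and 159.6, 127 and 120.1 CPM (0.38, SE 0.14), and Scd2, its main form in brain, had 591, 684 and 668 CPM and 849, 759 and 725 CPM (0.26, SE 0.10). Acacb, which makes malonyl-CoA at mitochondria, had 6.27, 4.66 and 6.12 CPM and 6.58, 10.3 and 8.16 CPM (0.55, SE 0.20). These 3 were called with the length offset as well, with which 1 other member was lower. Without BPA replicate 1 the count was 1, and without Ctrl replicate 1 or 2 or BPA replicate 3 it was 3. Oligodendrocyte genes make much of the brain's lipid, and BPA replicate 1 had the highest myelin sum; their part in the lipid genes was not tested.

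The study asked how chromatin marks relate to these changes, and the genes that write and erase them differed in their calls. None of the DNA methyltransferases was called. Dnmt1 had 58.6, 63.8 and 68.3 CPM and 69.7, 73.2 and 67.6 CPM (0.14, SE 0.08), and the differences were 0.06, SE 0.10 for Dnmt3a and -0.77, SE 0.46 for Dnmt3b. Of the enzymes that oxidise methylcytosine, Tet3 had 29.4, 39.7 and 42.7 CPM and 51.1, 51.2 and 44.7 CPM (0.40, SE 0.14) and Tet2 had 22.5, 33.3 and 25.99 CPM and 38.4, 32.1 and 33.95 CPM (0.35, SE 0.14), while Tet1 was not called (0.35, SE 0.21). Tet2 overlapped between groups and Tet3 did not. Gadd45b, a neuronal activity gene that takes part in DNA demethylation, had 14.8, 17.5 and 12.7 CPM and 10.4, 11.5 and 9.23 CPM (-0.53, SE 0.15). In all, 3 of 20 genes of DNA methylation were higher (Tet3, Mbd5 and Tet2) and 2 lower (Gadd45b and Mbd3). After the length offset 0 were higher and Gadd45b stayed lower. The higher count was 1 without Ctrl replicate 1 or BPA replicate 3, and the lower count was 1 without any one of the Ctrl males or BPA replicate 3.

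Among the writers of H3K27 methylation, Ezh2 had 3.08, 3.05 and 2.85 CPM in the Ctrl males and 4.45, 3.63 and 4.47 CPM in the BPA males (0.48, SE 0.17), whereas Ezh1, its counterpart in resting cells, was not called (86.01, 83.5 and 86.5 CPM and 82.4, 94.6 and 82.5 CPM, 0.02, SE 0.08). Polycomb genes had 2 of 42 higher (Lcor and Ezh2) and 3 lower (Pcgf1, Phf1 and Epop), shares near those of all genes. The higher count was 4 without Ctrl replicate 2 or BPA replicate 2, 1 without Ctrl replicate 1 or 3 and 0 without BPA replicate 1, and the lower count was 1 without BPA replicate 1 or 3. With the length offset 2 were higher and 1 lower. The H3K9 methyltransferases Setdb1, Setdb2, Suv39h1, Suv39h2, Ehmt1 and Ehmt2 were not called, with p between 0.089 and 0.93. In their list 3 of 33 genes were higher (9.09%, against 3.91% of all genes) and 1 lower (3.03%, against 4.98%), or 1 and 1 with the length offset. Fam208a, a subunit of the HUSH silencing complex, had 16.4, 19.4 and 17.1 CPM and 21.5, 24.4 and 25.1 CPM (0.42, SE 0.11). The lower gene was Adnp (-0.85, SE 0.26), at under 2 CPM in every mouse, but 82.1% of its exonic bases lie in exons of another gene. Its level is therefore uncertain. Histone acetylation genes had 7 of 47 higher (14.9%), led by the acetyltransferases Crebbp (0.29, SE 0.08) and Ep300 (0.26, SE 0.09). Another 3 were lower (6.38%), Rcor2, Sirt7 and Kat8. After the length offset 0 of the 47 were higher and 2 lower. The higher count was 2 without Ctrl replicate 1 or 2, 1 without BPA replicate 2 and 3 without BPA replicate 3, and the lower count was 5 without BPA replicate 1 and 1 without Ctrl replicate 1 or BPA replicate 3.

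Receptors for estrogen were not called. Esr1 had 8.46, 5.62 and 6.54 CPM and 5.34, 10.6 and 6.37 CPM (0.12, SE 0.26), with overlapping groups, and Esr2 had too few counts to be tested. The estrogen-related receptors Esrrb (0.10, SE 0.23) and Esrrg (0.33, SE 0.29) were not called either, although Esrrg reached 0.58 and passed the threshold without BPA replicate 2, and Esrra just passed, at 47.2, 43.3 and 45.6 CPM and 42.8, 35.6 and 39.01 CPM (-0.21, SE 0.09). In the list of steroid hormone and related receptors with their coregulators, 4 of 24 were higher (Nrip1, Med1 and Ncor1 among them). Nrip1, a corepressor of estrogen receptors, had 45.1, 53.9 and 45.1 CPM and 57.4, 58.02 and 67.1 CPM (0.34, SE 0.10). Nrip1 was the one of these 4 kept by the length offset, and 1 was left without Ctrl replicate 1 or BPA replicate 3, and 2 without Ctrl replicate 2. Esrra lost its call without any mouse but BPA replicate 1, and with the length offset 0 of the 24 members of this list were lower. Of 6 tested genes of the oxytocin, vasopressin and CRH systems, Crhr1 was lower and Lnpep, which breaks down oxytocin, was higher (0.27, SE 0.08), a call it lost with the length offset (0.14) and without BPA replicate 3, while the peptide gene Crh (-0.26, SE 0.22) and the oxytocin receptor Oxtr (-0.26, SE 0.18) were not called.

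**Figure D4:**
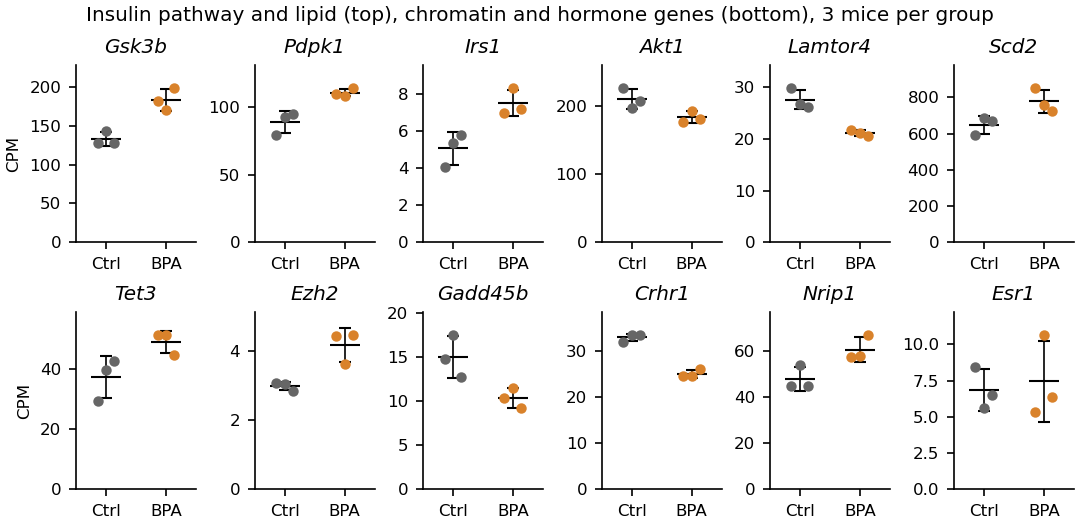
CPM of 12 genes in each Ctrl male (grey) and BPA male (orange), with the group mean (bar) and SD (whiskers), n = 3 per group, and a separate axis from 0 for each gene. Gsk3b, Pdpk1, Irs1, Scd2, Tet3, Ezh2 and Nrip1 lie higher in every BPA male, Akt1, Lamtor4, Gadd45b and Crhr1 lie lower, and Esr1 overlaps.

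Calcium-binding proteins had 7 of 34 members lower (20.6%) and 0 higher. S100a1, a calcium sensor, had 41.1, 36.7 and 32.5 CPM and 28.2, 26.7 and 24.1 CPM (-0.48, SE 0.11), and Tesc, a regulator of the sodium-proton exchanger, had 75.8, 55.3 and 67.02 CPM and 36.4, 50.2 and 46.8 CPM (-0.57, SE 0.15). Cabp1, which tunes calcium channels, was lower by 0.38 on the log2 scale. Length offset left 3 of the 7, and the count was 2 without Ctrl replicate 1 and 3 without BPA replicate 3. Of 30 neuropeptide genes, 2 were lower (6.67%, against 4.98% of all genes, and 1 with the length offset), Pcsk1n, the precursor of a prohormone convertase inhibitor (1024, 733 and 828 CPM and 602, 699 and 562 CPM, -0.47, SE 0.14), and the convertase chaperone Scg5 (-0.30, SE 0.10). That count was 6, 5 and 4 without BPA replicate 1, BPA replicate 2 and Ctrl replicate 3. Serotonin receptors Htr1a (0.39, SE 0.14) and Htr2c (0.38, SE 0.15) were higher, among 4 of 48 monoamine, acetylcholine and opioid receptor genes (8.33%, against 3.91% of all genes). In 1 of the 48 every BPA male lay above every Ctrl male, so Htr1a and Htr2c were not both apart between groups. The neurotensin receptor Ntsr1 was lower (-0.54, SE 0.19). The 4 higher genes were 2 with the length offset, 2 without Ctrl replicate 1 or BPA replicate 3 and 1 without Ctrl replicate 3.

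Imprinted genes, which are expressed from 1 parental copy, had 2 of 42 higher and 2 lower (4.76% each, near the shares of all genes), 1 and 4 with the length offset, and 4 higher without Ctrl replicate 2 and 1 without Ctrl replicate 3. Peg10 had 8.05, 9.50 and 9.10 CPM and 13.3, 11.4 and 12.2 CPM (0.47, SE 0.13), and the related retrotransposon-derived gene Rtl1 had 8.05, 7.95 and 8.32 CPM and 5.63, 7.02 and 6.19 CPM (-0.37, SE 0.14). Mirg, a noncoding RNA of the same cluster as Rtl1, was lower by 0.33 on the log2 scale. Peg10 was called without each mouse in turn, whereas Rtl1 was called in 1 of these 6 fits and Mirg in 2. Tiparp, a target of the aryl hydrocarbon receptor, had 12.5, 13.7 and 12.2 CPM and 19.3, 17.3 and 15.7 CPM (0.44, SE 0.12). It was called without each mouse in turn and with the length offset, but no list of targets of this receptor was examined.

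Marker sums overlapped between the groups for every cell type plotted except oligodendrocyte precursors. Those markers summed to 406, 431 and 424 CPM in the Ctrl males and 472, 506 and 443 CPM in the BPA males, so that every BPA male lay above every Ctrl male. A separation of 3 against 3 cannot give an exact permutation p under 0.1, and several cell types were compared. Among the single markers, 1 of 12 was higher in every BPA male. Of their 12 markers 9 had a positive log2 fold change and the median was 0.20, with Enpp6 (0.96, SE 0.33) and Sox6 (0.28, SE 0.12) higher and C1ql1 (-0.41, SE 0.16) lower. Enpp6 kept its call with the length offset. The higher count was 1 without Ctrl replicate 1 or BPA replicate 1 and 0 without Ctrl replicate 3, or 3 without BPA replicate 2, and the lower count was 2 without BPA replicate 2 and 0 without Ctrl replicate 1 or BPA replicate 1 or 3. The myelin list had 0 of 28 genes called (1 higher with the length offset), though 23 had a positive log2 fold change and the median was 0.29. The sum in Ctrl males was 1454 to 1787 CPM, and in BPA males it was 3090, 1324 and 1805 CPM. Without BPA replicate 1 the median was -0.055 and 2 of the 28 were lower, and without BPA replicate 2, the lowest mouse, the median was 0.50 and 12 were higher. Markers of the leptomeninges, the membranes around the brain, summed to 763 CPM in BPA replicate 1 and to 1859.7 to 3724 CPM in the others, and 1 of 15 was lower (Igfbp2, -0.75, SE 0.32), or 3 without BPA replicate 2 and 0 without Ctrl replicate 1 or BPA replicate 1 or 3. Deep-layer neuron markers summed to 1127 CPM in BPA replicate 1 and to 589 to 805 CPM in the others. There Sulf1 was higher (10.5, 9.98 and 7.97 CPM and 22.4, 16.03 and 12.3 CPM, 0.83, SE 0.21) and Ntsr1 lower, and without BPA replicate 2 there were 10 higher. Of 16 upper-layer markers 3 were lower, Dkkl1, Lamp5 and Rspo1, and 0 were lower with the length offset. Without BPA replicate 1 the direction turned, with 3 higher, 1 lower and a median of 0.06, and without Ctrl replicate 3 there was 1 lower and the median was again 0.06. Endothelial markers had 3 of 24 lower (12.5%, against 4.98% of all genes), Slco1c1 (-0.30, SE 0.09), Cldn5 (-0.36, SE 0.12) and Egfl7 (-0.33, SE 0.11). The 1 higher marker was Mfsd2a (4.17%, near the 3.91% of all genes), and 7 were lower without BPA replicate 2. After the length offset 3 were lower and 1 higher. Interneuron sums ranged from 1989.6 to 2109 CPM over all 6 mice. Of 25 interneuron markers 1 was higher (4.0%, near the 3.91% of all genes) and 0 lower, with a median of 0.01. The higher marker was Gad2, which makes GABA (0.25, SE 0.08). The part of these cell type differences in the gene lists above was not tested, except through the fits without each mouse.

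**Figure D5:**
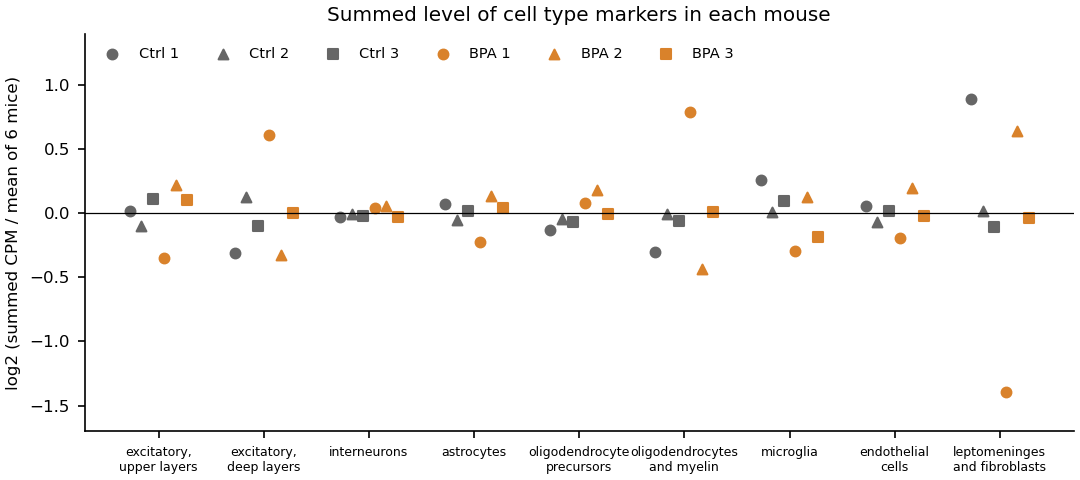
Log2 of the summed CPM of each list of cell type markers in each mouse, relative to the geometric mean of the 6 mice, for Ctrl males (grey) and BPA males (orange), with replicates 1 to 3 as circles, triangles and squares. BPA replicate 1 lies highest for deep-layer and myelin markers and lowest for upper-layer, astrocyte, microglial and leptomeningeal markers, and only oligodendrocyte precursor markers, from 406 to 431 CPM in Ctrl and 443 to 506 CPM in BPA males, separate the 2 groups.

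Across the genome, the split between higher and lower calls differed by chromosome and by base composition. The chromosomes given here were chosen after their values were seen. On chromosome 7, 35 genes were higher (2.82%) and 94 lower (7.57%) of 1242 tested, against 3.91% and 4.98% of all genes. Chromosome 19 had a larger lower share, with 16 higher and 42 lower (8.05%) of 522. On chromosome 18, 24 were higher (5.44%) and 4 lower (0.91%) of 441. With the length offset these counts were 22 and 65 on chromosome 7, 11 and 20 on chromosome 19, and 26 and 4 on chromosome 18. The genes of lowest exonic GC content (the first of 5 equal groups) had 184 higher and 31 lower, and those of highest content (the last group) had 31 and 398. With the length offset the first group had 93 higher and 28 lower, and the last group had 37 and 239. The libraries differed in their own trend with GC content too. Its rank correlations were 0.32, -0.10 and 0.21 in the Ctrl males and -0.21, 0.11 and -0.39 in the BPA males, so the groups overlapped. An offset for GC content in place of length gave 633 genes higher and 577 lower over all genes, against 627 and 798 in the first fit. Calls by GC group or chromosome were not counted with it, so the part of this trend in those splits was not tested. Among gene classes, transcripts that the annotation lists for testing by experiment had 14 of 211 higher (6.64%) and 4 lower, and 20 higher with the length offset, whereas processed pseudogenes had 7 of 598 higher and 31 lower, and 22 and 6 with the offset. The direction of the pseudogenes therefore turned with the offset, and counts of genes with near-identical copies are uncertain. In the 250 bases before the start, the ETS motif CCGGAAG, searched on both strands, was present in 7.44% of 457 higher genes with a promoter, in 16.05% of 617 lower genes and in 12.7% of all 11553. The palindromic NRF1 motif was present in 1.53%, 2.27% and 1.49%.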

How the data were processed

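Raw RNA-seq counts of prefrontal cortex from 3 Ctrl and 3 BPA male mice were used. The authors deposited raw counts per gene for each mouse, made with featureCounts 1.6.3 over exons after trimming (Trim Galore) and alignment (HISAT2, genome build mm10). No strand option is named, so overlapping and antisense genes are uncertain. The other 6 libraries, of females, were not used here. Of 54752 genes, 54723 were named through GENCODE vM21.

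Genes were filtered with filterByExpr (minimum count 10), scaled by TMM and compared with edgeR 4.0.16 in R 4.3.3 (quasi-likelihood F test, two-sided, group as the only term, biological coefficient of variation 0.127). An exact permutation test of 3 against 3 cannot give p under 0.1. The call threshold was an unadjusted p under 0.05. The length offset subtracted each library's loess trend of expression (log2 CPM) with the log2 of exonic length (span 0.5). Replicates differed beyond counting error (chi-square per degree of freedom 8.62 to 27.7), so each mouse counted as 1 sample. Alternatives were DESeq2 1.42.0, other scalings, filters, offsets and terms, and each mouse left out. The procedure was tested on simulated counts.

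Named genes were the 15 smallest p per direction with groups apart (predicted genes and lists described earlier left out), up to 4 members of smallest p and the member of highest level in each list, all members of lists of up to 5, and all tested metallothioneins, DNA methyltransferases, TET enzymes, H3K27 and H3K9 methyltransferases and estrogen and estrogen-related receptors. Further members were named after their values were seen. The comparison, lists and rules were chosen with earlier results of these data known. Lists got no set test. They are described by counts and medians beside those of all genes. Some genes are not reported here.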

Additional observations from a re-analysis of the deposited data

How the results depend on the processing

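Of 1425 changed genes (627 higher, 798 lower), the length offset left 892 (373 and 519), the block with length offset 533 (218 and 315), and a threshold of 0.01 left 283 (103 and 180). DESeq2 gave 958, with 524 lower. Without one mouse the count ranged from 690 to 1770, the higher genes from 330 to 806 and the lower from 338 to 1063. The 2 mice that moved it by over 1.5 times were Ctrl replicate 1 (734) and BPA replicate 3 (690). Replicate numbers did not pair the mice, since the deviations of same-numbered mice correlated at -0.40, -0.29 and 0.03 and no mouse correlated best with its own number, and the replicate block gave 1005 genes, 370 of them higher. Without a filter 1701 genes (756 higher, 945 lower) were called, and other scalings, filters, the GC offset (1210, 633 higher and 577 lower, so that the split turned) stayed within 1.5 times. Adding the number of digits of the mouse identifier (3 or 4) to the model gave 2061, but all Ctrl males and BPA replicate 1 have 3 digits, so the BPA effect then rests on that mouse and the count says nothing about stability. With it Esrrg was 0.9015 and passed the threshold. DESeq2 gave 4 lower mitochondrial import and 3 lower spliceosome genes (7 and 6 before), and the GC offset 6 higher insulin pathway and 4 higher spectrin and ankyrin genes (10 and 8 before).

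Of the 187 named genes, 65 lost their call with the length offset and 88 with the block in addition, without a change of sign. Without Ctrl replicate 1 this number was 68, without BPA replicate 3 it was 64, and without any other mouse it was 29 to 39. Tnrc6b was the one called gene that changed sign, at -0.0105 with the length offset and -0.0102 with the block in addition. The other sign changes of log2 fold changes were in genes short of the threshold. For these 2 settings the values were -0.0869 and -0.0856 for Dnmt3a, -0.0203 and -0.0529 for Esr1, -0.0457 and -0.048 for Ezh1, -0.0185 and -0.0186 for Setdb1, 0.0745 and 0.0721 for Mt1 and 0.1422 and 0.1503 for Mt2. With the GC offset they were 0.0684 for Ehmt2, 0.0237 for Mt2 and -0.0639 for mt-Co1, and with the identifier digits -0.3645 for Esr1, -0.0499 for Ezh1 and -0.0931 for mt-Co1. Without one mouse, the ranges that held a sign change were -0.0132 to 0.1469 for Dnmt3a, -0.2311 to 0.3086 for Esr1, -0.0125 to 0.2728 for Esrrb, -0.0659 to 0.5809 for Esrrg, -0.0494 to 0.0533 for Ezh1, -0.1546 to 0.0609 for Mt1, -0.1776 to 0.1512 for Mt2, -0.0056 to 0.0677 for Setdb1, -0.1027 to 0.1226 for Suv39h2 and -0.0622 to 0.0613 for mt-Co1. The cause was not tested.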
